A study of Mus musculus with 8 samples.

Results

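The resistin-like molecules are a family of 4 mouse genes, Retnla, Retnlb, Retnlg and Retn, and they were followed here in lung RNA of a house dust mite model of allergic asthma. The members were taken as the rows of the count table whose Entrez identifiers belong to these 4 symbols, and all 4 were found among the 23469 genes listed. C57BL/6 wild type (WT) and DDAH1-transgenic (DDAH1TG) mice, both purchased from the Jackson Laboratory, received house dust mite extract (HDM) or phosphate-buffered saline (PBS) into the trachea 3 times per week for 3 weeks. The HDM dose was 100 µg in 50 µl of PBS, the control mice received 50 µl of PBS alone, and lungs were taken 24 hours after the last challenge. DDAH1 is an enzyme that breaks down asymmetric dimethylarginine, an inhibitor of nitric oxide synthases. The age and sex of the mice, the promoter that drives the transgene and its sequence are not given in the sources used here. Equal amounts of RNA from 4 mice were pooled for each of the 4 groups, and 2 libraries were made per pool. Every SD (n = 2) therefore measures technical spread and carries no variation between mice. The question that the design asks of this family is how far HDM moved each member and whether the genotype changed that response.

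Resistin and the resistin-like molecules are small secreted proteins that share a cysteine-rich C-terminal region. Retnla encodes RELMα, also called FIZZ1, which alternatively activated macrophages and airway epithelium make in response to IL-4 and IL-13 through the transcription factor STAT6, and it is a standard marker of type 2 inflammation in the mouse lung. Retnlb encodes RELMβ, best known from goblet cells of the intestine. Retnlg encodes RELMγ, which is found in bone marrow and neutrophils, and Retn encodes resistin, a hormone of fat cells in the mouse.

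In build GRCm38, Retnlb, Retnla and Retnlg lie side by side on the plus strand of chromosome 16, at chr16:48816856-48818892, chr16:48842609-48844461 and chr16:48872608-48874498, and Retn lies alone on the plus strand at chr8:3655770-3659818. Each gene has 4 exons. The transcripts are 599 bases long for Retnla, 696 for Retnlb, 593 for Retnlg and 1139 for Retn, and the coding parts are 417, 318, 354 and 345 bases. The paper's methods state that reads were counted over coding regions. Genes without a coding part, such as Xist, also held counts, so that the span counted for each member is not certain. The stretch that defines the family is the 3′ end of the coding sequence, shown here from the codon of the cysteine that begins the shared pattern to the stop codon, with the last 10 cysteine codons in capitals (GENCODE transcripts, GRCm38).
Retnla: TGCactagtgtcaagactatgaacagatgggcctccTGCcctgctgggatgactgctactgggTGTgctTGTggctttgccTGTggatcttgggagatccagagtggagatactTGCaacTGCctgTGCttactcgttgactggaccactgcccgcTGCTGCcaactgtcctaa
Retnlb: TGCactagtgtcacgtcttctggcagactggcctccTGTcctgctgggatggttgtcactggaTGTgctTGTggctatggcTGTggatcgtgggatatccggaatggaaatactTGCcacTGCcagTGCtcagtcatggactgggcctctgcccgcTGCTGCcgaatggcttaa
Retnlg: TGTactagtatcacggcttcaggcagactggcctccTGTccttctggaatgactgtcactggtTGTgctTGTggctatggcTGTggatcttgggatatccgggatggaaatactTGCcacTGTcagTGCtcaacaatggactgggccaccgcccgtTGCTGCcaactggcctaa
Retn: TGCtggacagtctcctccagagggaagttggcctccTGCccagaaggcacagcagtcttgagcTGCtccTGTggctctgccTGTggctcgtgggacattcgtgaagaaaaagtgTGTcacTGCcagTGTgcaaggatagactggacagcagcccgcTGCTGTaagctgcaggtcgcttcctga
The numbers of codons between neighbouring cysteines were the same in all 4 members. The coding sequences were nevertheless distinct at the read length used. Retnla and Retnlg were identical at 84.2% of aligned coding bases, Retnlb and Retnlg at 81.4%, Retnla and Retnlb at 74.8%, and Retn at 67.5% to 69.5% with any other member. No stretch of 50 bases, the number of cycles read, was shared between a member's transcript and a transcript of another gene.

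The promoters are shown because the members diverged so far in their difference between HDM and PBS libraries. RefSeq (GRCm38.p6) gave 250 bases upstream of the annotated start for Retnla (chr16:48842359-48842608), Retnlg (chr16:48872358-48872607) and Retn (chr8:3655520-3655769), all on the plus strand. Capitals mark matches to a STAT6-type site (TTCNNNNGAA) and a C/EBP-type site (TTGCNNAA), searched on both strands, and these motifs were picked after the sequences had been seen.
Retnla: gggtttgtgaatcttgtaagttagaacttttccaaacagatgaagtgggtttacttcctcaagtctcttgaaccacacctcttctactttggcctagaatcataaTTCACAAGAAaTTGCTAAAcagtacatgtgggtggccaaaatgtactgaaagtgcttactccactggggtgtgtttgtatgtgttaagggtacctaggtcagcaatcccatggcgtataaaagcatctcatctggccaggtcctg
Retnlg: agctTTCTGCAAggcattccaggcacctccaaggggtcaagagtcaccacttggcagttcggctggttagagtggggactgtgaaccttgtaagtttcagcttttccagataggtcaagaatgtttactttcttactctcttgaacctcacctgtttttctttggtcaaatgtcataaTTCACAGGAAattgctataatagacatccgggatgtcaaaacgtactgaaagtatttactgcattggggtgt
Retn: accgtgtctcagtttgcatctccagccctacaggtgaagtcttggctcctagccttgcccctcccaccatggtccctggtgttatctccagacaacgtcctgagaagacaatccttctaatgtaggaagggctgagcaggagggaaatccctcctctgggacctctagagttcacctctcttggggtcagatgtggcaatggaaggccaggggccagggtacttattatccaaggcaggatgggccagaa
In Retnla the STAT6-type match TTCACAAGAA began 145 bases before the start and the C/EBP-type match TTGCTAAA followed at 134 bases before it. Retnlg carried the STAT6-type match TTCACAGGAA at 72 bases before its annotated start and a C/EBP-type match on the minus strand at 246 bases, and the 250 bases of Retn held neither. Across 32851 RefSeq promoter windows of 300 bases, 6.95% held the STAT6-type letters and 10.8% the C/EBP-type letters, so that either match alone is common. Both within 5 bases of each other occurred in 9 windows (0.0274%). The Retnla window is among these, and the motifs were picked with it in view, so that this share does not measure how unusual Retnla is. The Retnla and Retnlg windows were identical at 138 of 175 aligned bases (78.9%). A match of letters is a description of the sequence and was not tested as a site of binding.

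The libraries held 5694928 to 11929374 counts, and a floor of 3 counts corresponded to 0.232 to 0.450 CPM (counts scaled to a common library size, here by the TMM sizes of all 8 libraries). Levels below are in CPM unless another scale is named, and floors and intervals of shares cover counting error only, since reads of amplified RNA are not independent molecules. The mouse gene Ddah1 was at 47.8 and 34.3 CPM in WT PBS and 77.0 and 53.8 in DDAH1TG PBS. It was at 43.1 and 44.7 in WT HDM and 34.9 and 33.4 in DDAH1TG HDM. The libraries labelled DDAH1TG HDM thus lay below WT HDM for this gene. Whether transcripts of the transgene were counted on it is not known, since the transgene's sequence is not given. The group names are used here as labels. All 10 lung epithelial markers checked were present in every group. Xist was at 15.1 ± 0.81 CPM in WT PBS and 16.1 ± 6.75 in DDAH1TG PBS but at 2743 ± 86.9 in WT HDM and 2546 ± 702.0 in DDAH1TG HDM, and Ddx3y of the Y chromosome was at 58.7 to 69.0 CPM in PBS libraries and at 0.18 to 0.30 in HDM libraries. Skeletal muscle markers summed to 3.82 and 8.57 CPM in WT PBS and to 116 to 247 CPM in the other 6 libraries, and thymocyte markers to 107 and 108 CPM in WT PBS and to 30.7 to 68.8 CPM elsewhere. Given Xist and Ddx3y, sex and treatment cannot be told apart in any HDM against PBS comparison below, whereas both genotype comparisons were made between groups with like levels of Xist. The muscle and thymocyte sums differed between WT PBS and DDAH1TG PBS. Genotype under PBS, and the difference of genotype effects that uses it, cannot be told apart from this difference in tissue markers.

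Retnla was a gene of modest abundance in the PBS libraries and one of the most abundant transcripts in the HDM libraries. Its level was 12.7 and 6.78 CPM in the libraries of WT PBS, 1577 and 2210 in WT HDM, 17.2 and 19.1 in DDAH1TG PBS and 1195 and 1555 in DDAH1TG HDM. All 4 HDM libraries stood far above all 4 PBS libraries, and within each treatment the genotype groups did not overlap, although the lower WT HDM library and the higher DDAH1TG HDM library lay next to each other. In counts, Retnla went from 126 and 83 to 17645 and 21994 in WT and from 172 and 181 to 7978 and 20068 in DDAH1TG. By count it ranked between 6717 and 10541 of 23469 genes in PBS libraries, between 22 and 32 in WT HDM and between 34 and 38 in DDAH1TG HDM. It took 0.162% and 0.207% of all counts in WT HDM and 0.140% and 0.175% in DDAH1TG HDM.

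**Figure D1:**
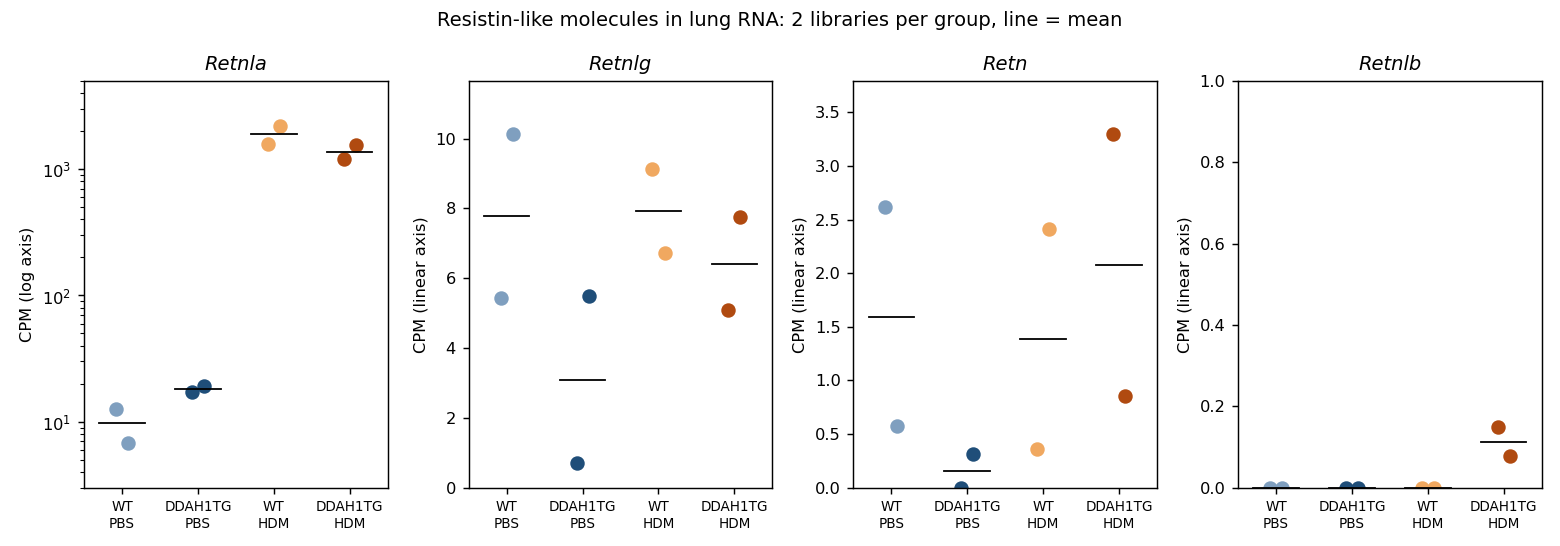
Level of each member in CPM per library (points, replicate 1 left and replicate 2 right) with the group mean as a line, on a log axis for Retnla and on linear axes for the other members. Retnla stood at 6.78 to 19.1 CPM in the 4 PBS libraries and at 1195 to 2210 in the 4 HDM libraries, whereas Retnlg, Retn and Retnlb stayed at or below 10.1 CPM throughout.

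In WT, Retnla rose 197-fold (95% interval 134 to 290.4), with group means of 9.72 ± 4.16 and 1894 ± 447 CPM and a log2 fold change of 7.62 (SE 0.26, adjusted p = 2.14e-10, edgeR quasi-likelihood, Benjamini-Hochberg adjusted). It was the only one of the 3 members tested that rose, in a comparison in which 6.74% of all genes tested passed the threshold of an adjusted p of 0.05 and 4.44% passed it as higher with HDM. Non-overlap alone says little with 2 libraries a group, since the groups did not overlap for 49.8% of genes here. In DDAH1TG, Retnla rose 76.7-fold (54.9 to 107), with group means of 18.2 ± 1.39 and 1375 ± 254 CPM and a log2 fold change of 6.26 (SE 0.22, adjusted p = 3.32e-08, edgeR). Retnla had the lowest p of all genes in this comparison, in which 13.8% of genes passed, 8.43% passed as higher, and 56.8% did not overlap. Retnlg and Retn, the other members tested, did not pass in either genotype. Each rise kept its direction and its call under every alternative run, with log2 fold changes of 7.21 to 8.12 in WT and 5.17 to 6.42 in DDAH1TG.

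The rise of Retnla was smaller in DDAH1TG than in WT. The genotype effect under HDM minus that under PBS was -1.38 on the log2 scale (SE 0.31, 95% interval -2.03 to -0.72, adjusted p = 0.0278, edgeR on all 8 libraries), that is a ratio 2.59-fold lower. Of all genes tested for this difference, 1.76% passed and 0.706% passed with a negative sign, and Retnla was the only member of 3 that passed. The difference had 2 sides of unequal size, neither of which passed alone. Under PBS the log2 fold change of DDAH1TG against WT was 0.89 (1.85-fold, SE 0.43, 95% interval -0.02 to 1.8, adjusted p = 0.516, edgeR), where 0.657% of all genes tested passed and 40.3% did not overlap between groups. Under HDM it was -0.43 for the libraries labelled DDAH1TG HDM (1.34-fold lower, SE 0.19, 95% interval -0.83 to -0.02, adjusted p = 0.285, edgeR), where 2.44% of all genes passed and 48.2% did not overlap. The mouse gene Ddah1 was also below WT HDM in these libraries, and whether its counts include the transgene is not known. The difference of genotype effects missed the threshold without WT PBS replicate 2 (-0.98, adjusted p = 0.154), without WT HDM replicate 2 (-1.10, adjusted p = 0.0949) and without DDAH1TG PBS replicate 2 (-1.29, adjusted p = 0.101, all edgeR). An exact permutation test of 2 libraries against 2 cannot go below p = 0.333, so that these calls rest on the model across genes.

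Transcript length moved with the fold changes that involve the HDM libraries. Genes with transcripts of 500 to 700 bases, the range that holds the 599 bases of Retnla, had a median log2 fold change of 0.87 for DDAH1TG HDM against WT HDM (230 genes), whereas the median of all genes was 0.01. Across all genes with a known length, Spearman's rho of fold change and length was -0.28 in this comparison, -0.33 for HDM against PBS in DDAH1TG, -0.13 for HDM against PBS in WT and 0.01 for DDAH1TG PBS against WT PBS. The median of the same length class was 1.23 for HDM against PBS in DDAH1TG and 0.33 in WT. Genes are not independent replicates, and these values are given as a description. For DDAH1TG HDM against WT HDM, Retnla at -0.43 thus lay below the median of its length class at 0.87. It lay above that median for HDM against PBS in both genotypes. For DDAH1TG PBS against WT PBS it also lay above it (0.89 against 0.07). With an offset for transcript length fitted in each library, the genotype difference of Retnla under HDM was -1.12 (SE 0.14, adjusted p = 0.00728, edgeR), and the difference of genotype effects was -2.07. The rise of Retnla with HDM was 5.17 in DDAH1TG with this offset in place of 6.26, and 7.28 in WT in place of 7.62. Without DDAH1TG HDM replicate 2, the deeper library of its group, the genotype difference of Retnla under HDM was -0.61 with no length offset. Without WT HDM replicate 2, the library with the highest level, it was -0.16.

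**Figure D2:**
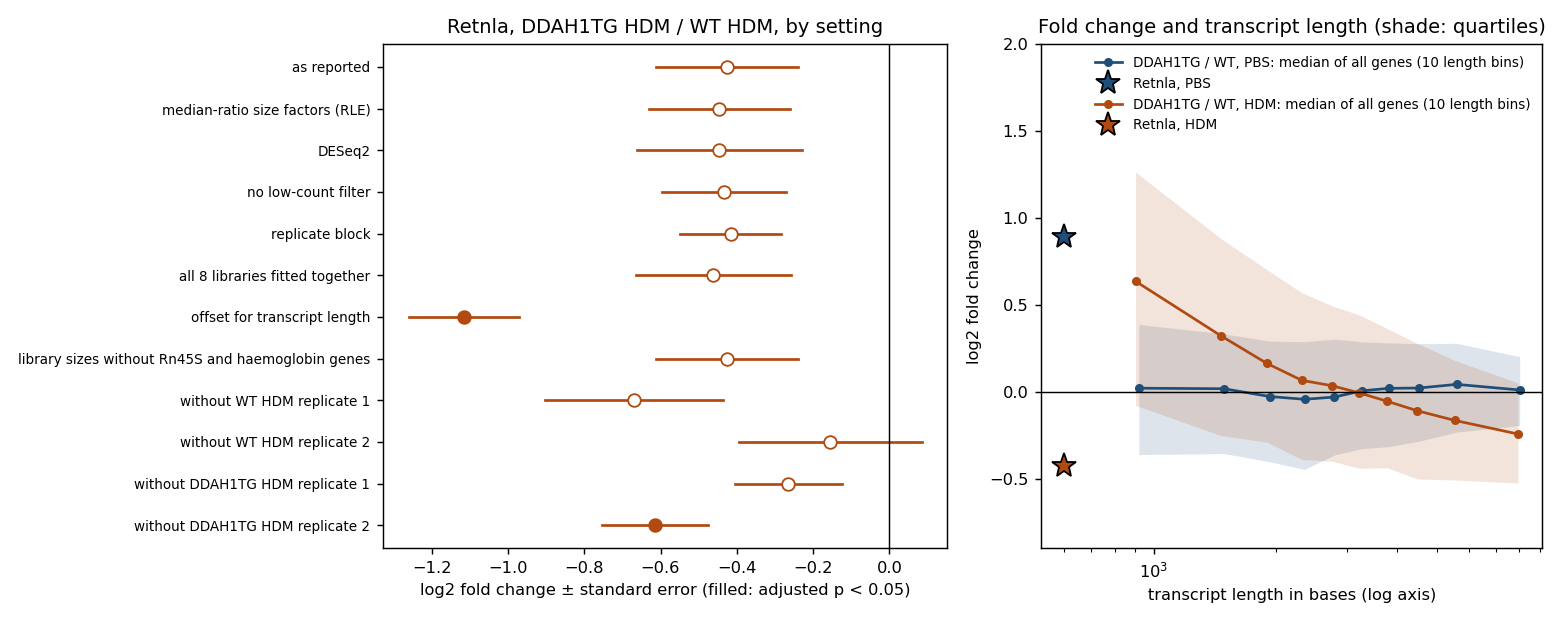
Left, log2 fold change of Retnla with its standard error for DDAH1TG HDM against WT HDM as reported (-0.43) and under each alternative, filled where the adjusted p was below 0.05. Right, median log2 fold change of all genes in 10 bins of transcript length (log axis, shade from the lower to the upper quartile) for both genotype comparisons, with Retnla as stars at 599 bases: under HDM the shortest genes lay above 0 and Retnla at -0.43 lay below them, and under PBS the medians were close to 0 and Retnla lay at 0.89.

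Retnla was set beside 30 other effector genes of type 2 inflammation, a list chosen with earlier results of these data known. With HDM, 22 of 27 tested list genes rose in WT and 19 of 26 in DDAH1TG, and none passed as lower. Of all genes tested, 4.44% passed as higher in WT and 8.43% in DDAH1TG, and these shares also stand beside the macrophage and eosinophil counts below. The median log2 fold changes of the list were 3.79 and 2.95 where the medians of all genes were 0.02 and 0.03. Retnla rose more than 25 of the 27 in WT, behind Rnase2a, an eosinophil-associated ribonuclease (9.58), and Clca1, a secreted product of airway goblet cells (8.29). Rnase2a had 0 and 1 counts in the WT PBS libraries, so that its fitted value starts below the floor. In DDAH1TG it rose more than 25 of the 26, among them Mmp12, a macrophage elastase (5.96), and Ccl8, a chemokine (5.70). The 1 list gene with a larger fitted value in DDAH1TG was Itln1, an epithelial lectin with 0 counts in both PBS libraries. By genotype under HDM, 11 of 28 list genes were lower in DDAH1TG and none passed as higher, with a median of -0.93 where 0.599% of all genes passed as lower. Arg1, the arginase of alternatively activated macrophages (-2.44, adjusted p = 0.00151, edgeR), and Slc26a4, the epithelial anion exchanger pendrin (-1.82, adjusted p = 0.00157, edgeR), were among the 11, whereas Retnla at -0.43 was not. With the transcript length offset this turned around, since Retnla at -1.12 passed and lay below the list median of -0.94. In the difference of genotype effects, 8 of 28 list genes passed with a negative sign and none with a positive one. Of all genes tested, 0.706% passed with a negative sign. Of the 28 values 19 were negative, with Ccl17 (-3.45) and Ccl22 (-2.74), chemokines of type 2 lymphocytes, and Clca1 (-3.23) below Retnla at -1.38. In PBS, 0 of 23 list genes passed in edgeR, 7 had an unadjusted p below 0.05, and 2 passed in DESeq2. Of the 19 macrophage markers, 10 rose with HDM in WT and 12 in DDAH1TG, and 1, Lyve1, fell in each (-0.79 and -1.44). Their summed level was 1226 to 1399 CPM in PBS libraries, 10620 and 10834 in WT HDM and 4721 and 5846 in DDAH1TG HDM. Chil3, a chitinase-like protein, made up 30.5% to 37.97% of this sum in PBS libraries and 69.2% to 85.3% in HDM libraries. Without Chil3 the other markers summed to 865 and 853 CPM in WT PBS and 831 and 891 in DDAH1TG PBS. With HDM they summed to 1696 and 1594 CPM in WT and 1452 and 1475 in DDAH1TG, so that most of the genotype gap in the full sum was Chil3. None of the 19 was at 0 in any group. Of the eosinophil markers, 3 of 8 rose in WT and 2 of 7 in DDAH1TG, with Epx at 0 in 3 of the 4 groups. In bulk lung RNA, more cells of a type and more RNA per cell cannot be told apart, and the part of cell numbers in the rise of Retnla was not tested.

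**Figure D3:**
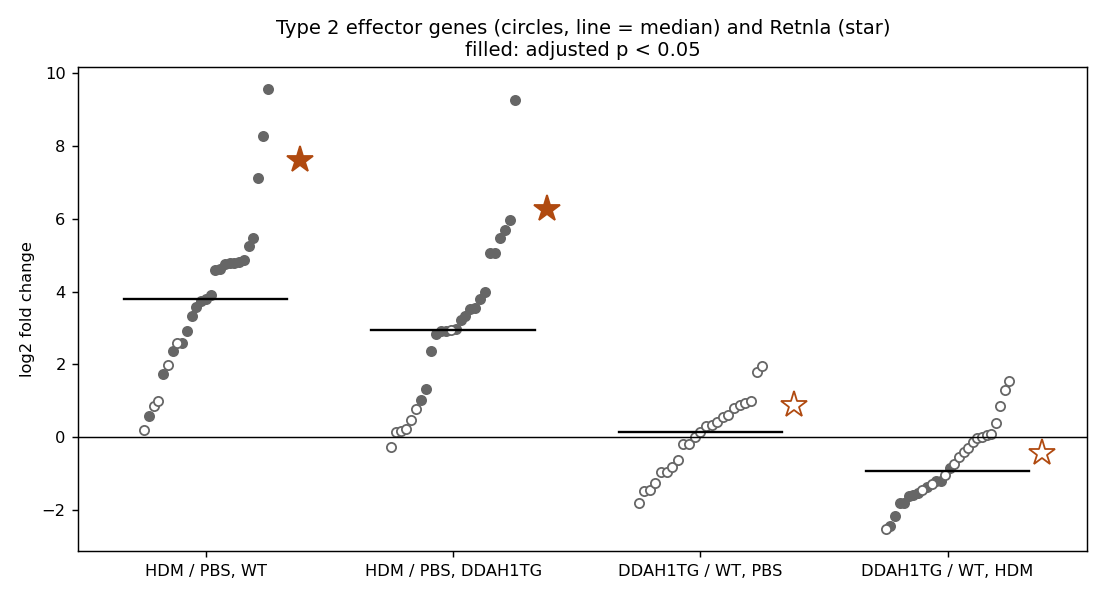
Log2 fold changes of the tested type 2 effector genes (circles, line at the median) and of Retnla (star) in the 4 comparisons, filled where the adjusted p was below 0.05. Retnla lay near the top of the list for HDM against PBS (7.62 and 6.26 against medians of 3.79 and 2.95) and, in this fit, above the list median of -0.93 for DDAH1TG HDM against WT HDM, whereas with the transcript length offset it lay below that median (-1.12 against -0.94).

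Most genes on a list of 18 around the IL-4 and IL-13 signal to Retnla did not pass the test. The list also holds Il33, Il25 and Tslp, which are not themselves steps from IL-4 or IL-13 to Retnla. Of the 18 genes, 3 of 15 tested rose with HDM in WT, where 4.44% of all genes passed as higher. They were Irf4, a transcription factor of alternatively activated macrophages (2.28, adjusted p = 3.79e-05), Il33, an alarmin of the epithelium (2.10, adjusted p = 5.58e-07), and Il2rg, the common receptor chain (1.28, adjusted p = 0.00127, all edgeR). Klf4, a transcription factor, fell by 0.72 on the log2 scale (adjusted p = 0.0187, edgeR). The same 4 genes passed in DDAH1TG, with log2 fold changes of 3.63 for Irf4, 0.82 for Il33, 1.02 for Il2rg and -0.73 for Klf4. Stat6 itself was between 71.3 and 103.8 CPM in all 8 libraries. The transcripts of the cytokines themselves were sparse, with Il4 at 0.715 and 4.82 CPM in WT HDM and at 0.899 CPM or below in the other 6 libraries, Il25 at 0 throughout, and Il13 at 2.50 and 0.90 CPM in WT HDM and at 0.155 CPM or below in the other 6 libraries. Il33 was the 1 gene of 16 tested that differed by genotype under HDM (-1.09, adjusted p = 0.00759, edgeR) and in the difference of genotype effects (-1.31, adjusted p = 0.00435, edgeR). Its levels were 115 and 145 CPM in WT PBS, 595 and 525 in WT HDM, 152 and 144 in DDAH1TG PBS and 262 and 251 in DDAH1TG HDM. Il33 thus had, like Retnla, its highest levels in WT HDM and its next highest in DDAH1TG HDM.

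Retnlg, the next gene along chromosome 16, did not follow Retnla. Its level was 5.43 and 10.1 CPM in WT PBS, 9.12 and 6.73 in WT HDM, 0.699 and 5.50 in DDAH1TG PBS and 5.09 and 7.75 in DDAH1TG HDM. The groups overlapped in all 4 comparisons, and 1 library, DDAH1TG PBS replicate 1 with 7 counts, stood below the other 7, which held 34 to 124 counts. With HDM the log2 fold change was 0.02 in WT (SE 0.55, 95% interval -1.15 to 1.20, adjusted p = 0.988, edgeR) and 1.07 in DDAH1TG (SE 0.92, -0.94 to 3.08, adjusted p = 0.505, edgeR). By genotype it was -1.34 under PBS (SE 0.78, -2.99 to 0.30, adjusted p = 0.621, edgeR) and -0.26 under HDM (SE 0.61, -1.59 to 1.06, adjusted p = 0.882, edgeR). All 4 intervals reached beyond 1 on the log2 scale in at least 1 direction, so that a change of this size was not excluded in that direction. The value under PBS hung on the low library, and it passed in no fit that kept both libraries of each group. With DDAH1TG PBS replicate 2 left out, so that the low library stood alone for its group, it was -3.45. With replicate 1 left out it was -0.50.

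Neutrophil markers, which share their cell of origin with Retnlg, gave another picture. Of 22 tested markers in PBS, 9 were lower in DDAH1TG and none was higher (0.375% of all genes passed as lower), including S100a9, a calcium-binding protein (-3.77, adjusted p = 3.89e-06, edgeR), and Clec4e, a lectin receptor (-4.80, adjusted p = 5.03e-06, edgeR). With HDM in WT, 7 of 22 fell and 3 rose (2.3% of all genes passed as lower and 4.44% as higher). The 3 that rose were Lcn2 (1.95), Lrg1 (1.75) and Cd177 (1.39). In DDAH1TG 7 of 20 rose, and in the difference of genotype effects 7 of 22 were higher (1.05% of all genes passed as higher). With the transcript length offset, 11 fell and 3 rose in WT, 4 rose and 1 fell in DDAH1TG, and the list median in DDAH1TG went from 1.08 to 0.24. S100a8, the partner of S100a9, was at 61.7 and 76.2 CPM in WT PBS, 13.1 and 18.4 in WT HDM, 19.1 and 9.41 in DDAH1TG PBS and 25.5 and 46.8 in DDAH1TG HDM. In WT it was lower in both HDM libraries than in both PBS libraries, where the levels of Retnlg overlapped. In DDAH1TG PBS replicate 1, in which Retnlg was lowest, 12 of the 24 markers were lower than in replicate 2, 9 were higher and 3 were equal. The summed level of the 24 markers was 1141 and 1102 CPM in WT PBS, 1586 and 1430 in WT HDM, 569 and 619 in DDAH1TG PBS and 1134 and 1488 in DDAH1TG HDM. Without Lcn2, an iron-binding protein, the other 23 summed to 888 and 849 CPM in WT PBS, 511 and 541 in WT HDM, 460.0 and 485 in DDAH1TG PBS and 551 and 628 in DDAH1TG HDM, so that the sum was lower with HDM in WT, where with Lcn2 it was higher. Mpo was at 0 in all groups and Elane in 3 of them, and the part of neutrophil number in the levels of Retnlg was not tested.

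**Figure D4:**
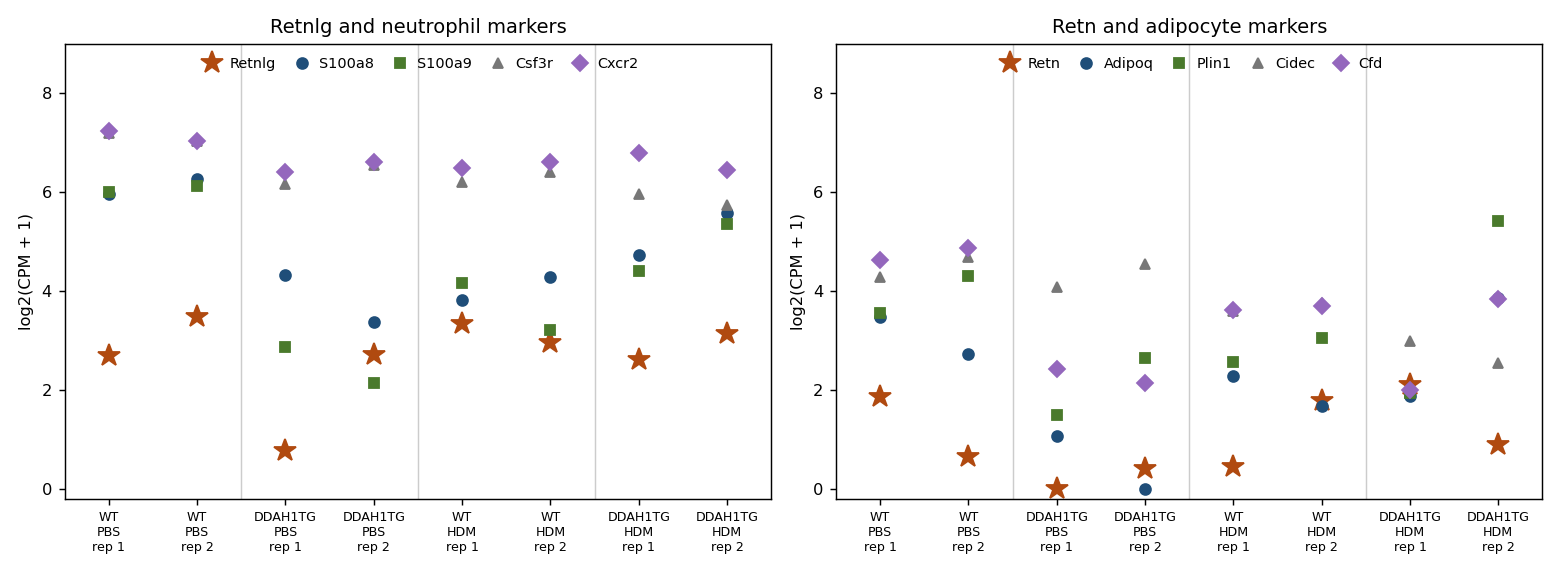
Left, Retnlg (stars) beside 4 neutrophil markers, and right, Retn (stars) beside 4 adipocyte markers, as log2(CPM + 1) in each of the 8 libraries. S100a8 and S100a9 were highest in WT PBS whereas Retnlg was at 5.43 and 10.1 CPM there and at 9.12 and 6.73 in WT HDM, and Retn did not exceed 3.30 CPM in any library. The 3 neutrophil markers that passed as higher with HDM in WT (Lcn2, Lrg1 and Cd177) are not shown.

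Retn was close to the limit of detection. It had 26 and 7 counts in WT PBS, 4 and 24 in WT HDM, 0 and 3 in DDAH1TG PBS and 22 and 11 in DDAH1TG HDM, which corresponds to 2.61 and 0.572, 0.358 and 2.41, 0 and 0.317, and 3.30 and 0.852 CPM. The libraries of 1 group differed by up to several fold, and DDAH1TG PBS was the lowest group, at or below the floor of 3 counts in both libraries. In DDAH1TG, the 33 counts with HDM against 3 with PBS gave a ratio of 10.9 (95% counting interval 3.43 to 55.7), and the fitted log2 fold change of 3.64 did not pass (SE 1.67, adjusted p = 0.181, edgeR). In PBS the 3 counts of DDAH1TG against 33 of WT gave a level 9.65-fold lower (3.03 to 49.2), and Retn was too low for the test there. In WT with HDM the log2 fold change was -0.20 (SE 1.17, adjusted p = 0.952, edgeR), and by genotype under HDM it was 0.61 (SE 1.33, adjusted p = 0.874, edgeR). Counting intervals leave out the spread between libraries, which for Retn was as large as its level.

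Fat cell transcripts were present in the lung pools at low levels and differed between them. Adipoq, the adipocyte hormone adiponectin, was at 10.1 and 5.64 CPM in WT PBS, 3.84 and 2.21 in WT HDM, 1.10 and 0 in DDAH1TG PBS and 2.70 and 13.5 in DDAH1TG HDM, and Lep was at 0 in every group but WT PBS. The summed level of 11 adipocyte markers was 266 and 301 CPM in WT PBS and 93.0 to 151 in the other 6 libraries. Among 24 genes of fat tissue, 2 of 20 tested were lower in DDAH1TG under PBS, where 0.375% of all genes passed as lower. They were Cfd, the protease adipsin (-2.75, adjusted p = 0.00205, edgeR), and Car3, a carbonic anhydrase (-1.31, adjusted p = 0.000397, edgeR). In this comparison Retn went from 33 counts to 3. The 11 adipocyte markers summed to 131 and 139 CPM in DDAH1TG PBS and to 151 and 138 in WT HDM, where Retn held 4 and 24 counts. With HDM in DDAH1TG, Fabp4, a fatty acid carrier that alveolar macrophages also express, rose by 3.07 (adjusted p = 0.00222, edgeR) and Cidec, a lipid droplet protein, fell by 1.70 (adjusted p = 0.043, edgeR). In DDAH1TG HDM replicate 1, which had the higher Retn of the pair, 7 of the 11 adipocyte markers were lower than in replicate 2, 3 were higher and 1 was equal. The part of fat in the levels of Retn was not tested.

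Retnlb was not detectable at this depth in WT PBS, WT HDM or DDAH1TG PBS, with 0 counts in all 6 libraries, and had 1 count in each library of DDAH1TG HDM. A count of 0 allows levels of up to 0.245 to 0.317 CPM in these 6 libraries. Goblet cell genes were present all the same, since Clca1, Muc5ac and Fcgbp, products of airway mucous cells, rose in WT by 8.29, 5.26 and 4.76 on the log2 scale (adjusted p = 1.52e-10, 2.30e-09 and 7.08e-07, edgeR). Zg16 and Tff3, which mark intestinal goblet cells, were at 0 in every group, as Retnlb was in 3 of the 4. Muc2, a mucin of the same goblet cell list, was not. It had 12 counts in WT PBS replicate 2 and in DDAH1TG HDM replicate 2, and 2 or fewer in every other library. All 6 tested genes of the goblet list rose in WT and 6 of 7 in DDAH1TG, where 4.44% and 8.43% of all genes passed as higher.

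Set on 1 scale, as CPM per kilobase of coding sequence, Retnla and Retnlg stood close together in WT PBS and Retnla stood above the other members in the other 3 groups. This scale takes the coding part as the span counted, which is not certain. In WT PBS, Retnla was at 23.3 ± 9.98, Retnlg at 22.0 ± 9.39 and Retn at 4.62 ± 4.19 on this scale, and Retnla and Retnlg did not differ beyond their spread. In WT HDM, Retnla was at 4541 ± 1073, Retnlg at 22.4 ± 4.77 and Retn at 4.01 ± 4.21. In DDAH1TG PBS, Retnla was at 43.5 ± 3.32, Retnlg at 8.75 ± 9.58 and Retn at 0.46 ± 0.65, and in DDAH1TG HDM they were at 3297 ± 609, 18.1 ± 5.30 and 6.01 ± 5.01. The order Retnla, Retnlg, Retn held for the means of all 4 groups, and the libraries of neighbouring members overlapped only for Retnla and Retnlg in WT PBS. Retnla made up 38.8% (exact 95% interval 32.2% to 45.7%) and 61.2% (54.1% to 67.9%) of the counts of the family in the libraries of WT PBS. Its share was 96.1% (92.1% to 98.4%) and 76.7% (70.8% to 81.9%) in DDAH1TG PBS and 99.3% to 99.6% in the 4 HDM libraries.

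Of the 4 neighbours of the chromosome 16 cluster, Cip2a alone passed the test with HDM, and Trat1 and Morc1 were too low for it. Trat1 and Morc1, on the lower side of the Retnlb, Retnla and Retnlg cluster, were below 1 CPM in all 8 libraries, and Dzip3, on the higher side, had log2 fold changes of -0.40 in WT and 0.76 in DDAH1TG with HDM (adjusted p = 0.521 and 0.186, edgeR). Cip2a, 119659 bases beyond Retnlg, rose in both genotypes (2.35, adjusted p = 0.00871, and 2.79, adjusted p = 0.0121, edgeR). Next to Retn, Stxbp2, Mcemp1 and Trappc5 passed in no comparison in which Retn was tested.

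The genes whose pattern over the 8 libraries lay closest to each member were found by the root mean square difference of centred log2 CPM among 15868 genes. For Retnla, whose own range was 8.31, they were Krt4, an epithelial keratin (0.42), Clca1 (0.51) and Xist (0.57), the last of which separates all HDM from all PBS libraries. The PBS levels of Krt4 lay below the floor. Krt4 went from 0.05 ± 0.071 CPM in WT PBS to 37.5 ± 1.63 in WT HDM and from 0.103 ± 0.00415 in DDAH1TG PBS to 47.3 ± 6.88 in DDAH1TG HDM. For Retnlg, with a range of 3.53, the closest were Ripk3, a kinase of necroptosis (0.30), Gm11201 (0.39) and Relt (0.43), and each was lowest in DDAH1TG PBS, as Retnlg was. For Retn, with a range of 4.17, they were Klrk1, a receptor of natural killer cells (0.54), Piwil2 (0.57) and 4930555G01Rik (0.65). With 4 pools, such likeness is a description of the libraries.

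Proposed binding partners of the family were followed as a list of 6 genes, of which 5 were tested and Casr was at 0 in every group but DDAH1TG PBS. Among them, Cap1, Tlr4, Ror1 and Dcn have been proposed for resistin, and Btk and Casr for RELMα. Btk, a kinase of B cells and myeloid cells, was higher with HDM in WT (1.64, adjusted p = 0.0196, edgeR), and Dcn, the matrix proteoglycan decorin, fell by 0.81 on the log2 scale with HDM in DDAH1TG (adjusted p = 0.0296, edgeR). No partner passed in either genotype comparison or in the difference of genotype effects by edgeR or DESeq2, and 1, in PBS, had an unadjusted p below 0.05 in edgeR. Their summed level was 254 to 378 CPM over the 8 libraries.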

How the data were processed

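Lung RNA of 4 mice per group was pooled, and the 8 libraries were assigned to groups by their titles. The authors amplified the RNA with a PrepX SPIA kit, sequenced single reads of 50 cycles, aligned them to mm10 (GRCm38) with TopHat and summed the reads over coding regions with ShortRead. Per the labels, CASAVA 1.8, bcl2fastq and DESeq were also used. The aligner's version is not given in the sources used here. The deposited values are raw counts for 23469 genes, without normalization. Amplification and pooling leave technical spread alone between the libraries of a group, and p-values measure only that spread. Within each group the pair of libraries was compared, and the mean chi-square per gene of 13.1 to 28.1 exceeded that of counting error, so both were kept as separate libraries. The 45S ribosomal RNA gene took 8.58% to 21.8% of the counts.

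Each comparison was fitted on its own 4 libraries, and the difference of genotype effects on all 8, with edgeR 4.0.16 (R 4.3.3) by the quasi-likelihood test with TMM and filterByExpr at a minimum count of 10, and p-values were adjusted by Benjamini-Hochberg over all genes tested. The scripts were tested on simulated data. Symbols came from RefSeq (23372 genes matched) and transcript lengths from GENCODE M21 (21145 genes). Genes named were the members, up to 3 called genes per direction of each list (or the lowest p), the 3 most alike, the nearest neighbours, Ddah1, Xist and Ddx3y. Others (Adipoq, Lep, Stat6, Il13, Il4, Il25, S100a8, Mpo, Elane, Epx, Zg16, Tff3, Muc2 and Casr) were chosen after their values were seen. The members and lists were chosen with earlier results of these data known. Alternatives were median-ratio size factors, DESeq2 1.42.0, no low-count filter, a replicate block, all 8 libraries fitted together, a transcript length offset (loess span 0.5), library sizes without ribosomal and haemoglobin genes, and leaving out each library. Replicate numbers did not pair the samples.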

Additional observations from a re-analysis of the deposited data

Results flagged for a closer look

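The genotype difference of Retnla under HDM minus that under PBS was -1.38 on the log2 scale (SE 0.31, adjusted p = 0.0278, edgeR), and it stood out because the same genotype contrast differed between the treatments when the difference itself was tested. Retnla was at 18.2 ± 1.39 CPM in DDAH1TG PBS against 9.72 ± 4.16 in WT PBS, and at 1375 ± 254 CPM in DDAH1TG HDM against 1894 ± 447 in WT HDM (SD between 2 libraries of 1 pool). It was rank 199 by p of 15868 genes tested. The HDM libraries carried high Xist and the PBS libraries low Xist, so that the difference cannot be told apart from one between the sexes. Skeletal muscle and thymocyte markers also differed between WT PBS and DDAH1TG PBS, and their part in the difference was not tested.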

How the results depend on the processing

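The rise of Retnla with HDM kept its direction and its call in both genotypes under every alternative run. Leaving out 1 library at a time, it spanned 7.21 to 8.12 in WT and 6.06 to 6.42 in DDAH1TG. Among fits that kept both libraries of each group, the genotype difference of Retnla under HDM passed with the transcript length offset alone (-1.12). With 1 library left out it spanned -0.67 to -0.16, and the difference of genotype effects of Retnla spanned -1.88 to -0.98. For Retnlg, the genotype difference under PBS spanned -3.45 to -0.50, the treatment difference in WT turned to -0.27 with the length offset and spanned -0.35 to 0.53 with 1 library left out, and that in DDAH1TG turned to -0.036 with the offset and spanned 0.24 to 3.20 with 1 library left out. For Retn, the genotype difference under HDM spanned -0.67 to 2.53 (reversed at -0.21 and -0.67) and the treatment difference in WT -2.12 to 1.25 (reversed at 1.25 and 0.61). The Retnlg treatment difference in WT was reversed at -0.35 and -0.21. The cause of these shifts was not tested.

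The correlations of same-numbered libraries' deviations were -0.02 to 0.03, and the replicate block changed no call of a member (Retnla genotype difference under HDM -0.42, difference of genotype effects -1.36). Counts of all genes called moved most for DDAH1TG HDM against WT HDM, from 370 to 164 with the length offset (54.9% higher against 75.4%), 342 with median-ratio factors, 625 with the replicate block, 771 with all libraries fitted together, 922 with DESeq2, 1055 without the filter, and 6 to 1595 with 1 library left out. They moved from 98 to 223 (DESeq2), 306 (no filter) and 46 (replicate block) under PBS, from 1020 to 1588 without the filter in WT, and from 279 to 680 (DESeq2) and 675 (no filter) for the difference of genotype effects. With 1 library left out they reached 432 under PBS, 652 to 1661 in WT, 277 in DDAH1TG and 138 to 723 for the difference of genotype effects. Depth limits Retnlb and Retn, whose counts lie near the floor of 3 in several libraries, and leaving out 1 library of a pair assumes that the lone one varies like the other groups.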
